A study of Mus musculus with 13 samples.

Results

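Open chromatin at 10 genes of the proton pump and of acid-base transport was followed through the cells of the mouse kidney at birth and in the adult. The genes were chosen by name, with earlier results of these data known: Atp6v1b1, Atp6v1g3, Atp6v1c2, Atp6v0d2 and Atp6v0a4, which encode subunits of the proton pump, the bicarbonate and chloride transporters Slc4a1, Slc4a4 and Slc26a4, and the ammonia channels Rhcg and Rhbg. They are 10 of 55450 annotated genes, and 178 of the 300755 peaks lay in a gene body or in the 2 kb upstream of it (mm10). Single nuclei ATAC-seq, in which a transposase cuts open DNA in nuclei captured in droplets, was done on whole kidneys, with 2 samples from P0, 1 from P21 and 2 from P56 mice. The P0 mice were 1-day-old by the protocol, both kidneys were taken, and the P21 and P56 samples (3 and 8 weeks) were joined as adult. No treatment or allele is named for any group. Strain and sex of these mice are not given in the sources used here, though the study's methods name wild type and C57BL/6 mice for its single cell RNA-seq, and nothing says whether a sample is 1 animal, so p-values measure only the spread between these samples. Each nucleus carries a 1 or a 0 per peak, here called open or closed, and belongs to 1 of 13 clusters of the deposited annotation: IC and PC (intercalated and principal cells of the collecting duct), CNT (connecting tubule), DCT (distal convoluted tubule), LOH (loop of Henle), PCT and PST (convoluted and straight proximal tubule), Podo (podocytes), NP (nephron progenitors), Endo (endothelium), Immune, Stroma1 and Stroma2.

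The vacuolar proton pump is built from a ring that splits ATP in the cytosol and a ring that carries protons through the membrane. Most of its subunits are made in every cell, but several have a second form that is made in few cell types, among them the intercalated cell of the collecting duct, which packs the pump into its surface membrane. Type A intercalated cells secrete acid into the urine and return bicarbonate to the blood through Slc4a1, and type B cells secrete bicarbonate through Slc26a4, while the proximal tubule returns bicarbonate to the blood through Slc4a4.

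IC held 599 of the 28316 nuclei, 40 and 56 in the P0 samples, 94 in the P21 sample and 221 and 188 in the P56 samples. The nuclei were not equally deep: the median number of open peaks of an IC nucleus was 6594.5 and 8634.5 in the P0 samples, 4518.5 in the P21 sample, and 3418 and 5737.5 in the P56 samples. All 5 intercalated markers that were looked up (Foxi1, Hmx2, Kit, Insrr, Aqp6) had their highest level in IC. Of the markers of the other clusters, 3 led elsewhere: the principal cell markers Aqp3 in IC and Hsd11b2 in CNT, and the progenitor marker Cited1 in Podo. The study took Atp6v1g3 and Atp6v0d2 as markers of intercalated cells, so their level in IC may be partly a condition of the name. A barcode sequence occurred in more than 1 sample for 477 barcodes (959 nuclei, 21 of them in IC), and none occurred more than once within a sample.

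The DNA at 5 peaks whose values are given below is shown. It is the RefSeq sequence of GRCm38.p6, read 5′ to 3′ on the strand of the gene. Capitals mark a match, on either strand, to a forkhead motif (TGTTTAC), the class of Foxi1, or to the repeat CCAGNNNNNNCCNG used here for Tfcp2l1, both factors of intercalated cells; in the Atp6v0a4 stretch the repeat comes first and the forkhead letters second, and they do not overlap. The first is the 150 bases before the annotated start of Atp6v1b1 (chr6:83742840-83742989, plus strand), with forkhead letters.
Atp6v1b1 upstream: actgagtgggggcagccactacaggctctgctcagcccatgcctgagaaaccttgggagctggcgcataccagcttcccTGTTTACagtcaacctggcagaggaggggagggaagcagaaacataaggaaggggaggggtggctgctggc
The second is the centre of the more upstream of the intron 1 peaks of Atp6v0a4 described below (chr6:38121128-38121327, minus strand).
Atp6v0a4 intron 1: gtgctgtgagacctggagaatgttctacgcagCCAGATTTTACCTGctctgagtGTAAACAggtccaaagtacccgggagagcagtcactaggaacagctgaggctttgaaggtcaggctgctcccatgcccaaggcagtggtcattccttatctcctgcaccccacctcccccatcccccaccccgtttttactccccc
The third is the centre of the Slc4a1 peak that was most open in IC (chr11:102360835-102361034, minus strand).
Slc4a1 exon 3: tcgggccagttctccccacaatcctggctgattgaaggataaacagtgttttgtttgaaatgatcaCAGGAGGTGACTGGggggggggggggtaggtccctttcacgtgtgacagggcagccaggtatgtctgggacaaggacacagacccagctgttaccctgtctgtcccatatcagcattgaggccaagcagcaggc
The fourth is the centre of the Slc26a4 peak in intron 13 that closed between P0 and adult in PC (chr12:31534367-31534566, minus strand), with no match.
Slc26a4 intron 13: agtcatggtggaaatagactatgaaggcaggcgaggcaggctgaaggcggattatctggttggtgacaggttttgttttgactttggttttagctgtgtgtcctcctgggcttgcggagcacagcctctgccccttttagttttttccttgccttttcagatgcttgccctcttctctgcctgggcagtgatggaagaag
The fifth is the 150 bases before the internal start of Slc4a4 (chr5:89027816-89027965, plus strand), also with no match.
Slc4a4 internal start: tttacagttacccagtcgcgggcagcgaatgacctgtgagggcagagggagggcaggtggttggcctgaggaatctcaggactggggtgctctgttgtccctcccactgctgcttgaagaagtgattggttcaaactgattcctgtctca

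These letters were not particular to the genes. In the central 300 bp, the forkhead letters occurred in 5.09% of the 300693 peaks searched, in 14 of the 178 peaks of the 10 genes (7.87%) and in 3 of the 46 that were most open in IC (6.52%). The Tfcp2l1 repeat occurred in 8.09% of all peaks, in 5.62% of the peaks of the 10 genes and in 4.35% of those most open in IC. An Hnf1 motif (GTTAATNATT) of the proximal tubule occurred in 0.755% of all peaks and in 2 of the 56 Slc4a4 peaks most open in PCT or PST (3.57%), and the Hnf4 letters CAAAGTCCA in 0.809% of all peaks and in 0 of the 178.

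Of the 178 peaks, 13 overlapped a transcript start, 140 lay in introns, 22 in exons and 3 upstream. Slc4a4, a gene of 352836 bp, held 93, Atp6v0a4 22, Atp6v0d2 13, Atp6v1c2 11, Slc26a4 and Rhbg 9 each, Rhcg 7, Slc4a1 6 and Atp6v1b1 and Atp6v1g3 4 each. A gene was called open in a nucleus when at least 1 of its peaks was open, so a gene with more peaks is open more often and levels were compared between clusters and not between genes. Peaks shared with another gene cannot be told apart from it: 8 of the 9 Rhbg peaks also lay in the window of Gm38392, 7 of the 22 of Atp6v0a4 in those of Svopl, Tmem213, Gm23231 or D630045J12Rik, and 1 of Rhcg in that of Gm45170. The clusters were themselves made from the open chromatin of these nuclei, so levels between clusters are a description, given as mean ± SD over 5 samples, without a test.

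Atp6v1g3, the G subunit form of few cells, was low in every cluster but IC. It was open in 35% and 41.1% of IC nuclei at P0, in 47.9% at P21 and in 29.9% and 51.6% at P56 (41.1% ± 8.94), and in 1.97% of PST nuclei, the next cluster. Its start-site peak (chr1:138273642-138274156) led in IC in 5 of 5 samples, and so did a second peak in intron 1 (chr1:138275856-138276413), with 20.9% ± 9.36 in IC and 1.08% in Immune. The lowest IC sample at this gene, P56 replicate 1, lay far above the mean of every other cluster.

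Atp6v1c2, the C subunit form of few cells, was open in 70.0% and 64.3% of IC nuclei at P0 and in 47.9%, 36.7% and 56.4% in the adult samples (55.0% ± 13.2), followed by CNT with 14.5% ± 3.88. The peak most open in IC was not the one at the start. A peak over coding exon 3 of 15 (chr12:17321510-17321951) was open in 37.5% and 33.9% of IC nuclei at P0 and in 24.5%, 17.2% and 30.8% in the adult samples, and in 0.396% of Stroma1 nuclei, the next cluster. The start-site peak (chr12:17324259-17325385) was less sharply set apart, with 20.5% ± 10.7 in IC and 7.77% ± 4.33 in DCT.

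Atp6v0d2, the d subunit form of few cells, had a start-site peak (chr4:19922485-19922941) that was open in 42.5% and 39.3% of IC nuclei at P0 and in 26.6%, 18.6% and 30.8% in the adult samples, with 3.86% ± 2.25 in CNT as the next. The whole gene was much less restricted, with 44.9% ± 10.2 in IC, 34.2% ± 8.89 in PST and 21% in Stroma1. The PST level came with an intronic peak 26825 bp into the gene (17.1% in PST, 4.57% in IC), and only 3 of its 13 peaks were most open in IC. Thinned to 1000 open peaks per nucleus, IC led at this gene in the adult samples but Stroma1 led at P0, with 7.46% against 6.48%.

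Atp6v1b1 and Atp6v0a4, the B and a subunit forms whose loss causes distal renal tubular acidosis, were open along the whole distal nephron. Atp6v1b1 was open in 65%, 75.0%, 66%, 38.9% and 65.4% of IC nuclei in the order P0, P0, P21, P56 and P56, with the lowest value in the shallowest sample. DCT followed with 45.6% ± 14.3 and CNT with 44.9%, and within samples IC was above DCT in 5 of 5 and above CNT in 4 of 5. The start-site peak (chr6:83742874-83743300) was open in 27.5% and 33.9% of IC nuclei at P0 and in 17.0%, 19.5% and 34.6% in the adult samples (26.5% ± 8.08), and in 20.4% ± 8.89 of CNT nuclei. Its most open peak lay in intron 1 (chr6:83744009-83745116), with 45.9% ± 13.9 in IC and 33.4% ± 11.9 in DCT, and at equal depth DCT led there.

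Atp6v0a4 was open in 87.4% ± 4.92 of IC nuclei, in 74.8% ± 10.6 of DCT and in 71.6% of PST nuclei. Its peaks fell apart by cluster. In IC they were a peak at the start of the transcript Atp6v0a4-206 (chr6:38096911-38097525, 32.4% ± 11.7 in IC and 9.70% in DCT) and a peak in intron 1 (chr6:38103961-38104745, 21.2% ± 4.26 in IC and 1.21% in PCT). The intron 1 peak whose sequence is shown above (chr6:38120900-38121556) was less restricted, open in 37.5% and 32.1% of IC nuclei at P0 and in 29.8%, 15.4% and 38.8% in the adult samples (30.7% ± 9.35), with 22.3% ± 9.87 in CNT, and at equal depth CNT led there. A peak in intron 16 (chr6:38055585-38056216) was most open in DCT (25.3% ± 12.3, IC 6.54%), and the peak over the annotated start (chr6:38124164-38125365) in PCT (34.8% ± 9.12), with PST (32.7%) and IC (29.4%) within that SD. The lead peak (chr6:38109155-38111472, at the start of the transcript Atp6v0a4-202) was open in 40.6% ± 6.64 of IC and 38.9% ± 13.2 of DCT nuclei.

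Slc4a1, the basolateral anion exchanger of type A cells and of red cells, was open in 17.5% and 33.9% of IC nuclei at P0 and in 24.5%, 13.1% and 35.1% in the adult samples (24.8% ± 9.74), and in 7.97% ± 5.13 of PST nuclei. No peak of the list overlapped its annotated start. Its lead peak lay over exon 3 of 20 and the introns beside it (chr11:102360590-102361280), 5268 bp into the gene, and was open in 19.9% ± 8.68 of IC nuclei and 0.544% ± 0.463 of PST nuclei. IC led there in 5 of 5 samples.

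Slc26a4, the apical exchanger of type B cells, was open in 27.5% and 25% of IC nuclei at P0 and in 24.5%, 22.6% and 31.9% in the adult samples (26.3% ± 3.59). CNT followed with 16.4% ± 7.48. At P0 the lead of IC was small, with LOH at 24.1% and CNT at 23.7%, and in the adult it was wide, with PCT next at 12.5%. At equal depth CNT led at P0, with 5.81%, followed by PCT, PC, NP and LOH, all above IC. In the adult IC led at equal depth, with 8.17% and PCT next at 2.42%. The start-site peak (chr12:31559067-31560306) was open in 16.3% ± 4.29 of IC and 7.54% ± 3.75 of PST nuclei.

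The ammonia channels were open in CNT and IC most, and at P0 in DCT as well. Rhcg, the channel of the apical membrane, was open in 35.2% ± 9.09 of CNT and 33.3% ± 9.81 of IC nuclei, and CNT was the higher in 3 of 5 samples. Rhbg, a basolateral channel, was open in 47.6% ± 11.6 of IC and 41.5% ± 8.88 of CNT nuclei, with IC the higher in 4 of 5 samples. In the P0 samples DCT gave 41.2% and 29.8% for Rhcg, the highest mean of that stage (35.5%, with CNT at 35.4% and IC at 32.9%), and 45.1% and 38.6% for Rhbg, in P0 replicate 1 above the 40% of IC. In the adult samples the DCT shares were lower, with means of 22.5% and 11.4%, in nuclei with fewer open peaks. The medians in DCT were 8025 and 7283 at P0 and 3270, 2549 and 5611.5 in the adult samples. In the test of stage described below, Rhcg in DCT was not called (log2 fold change -0.155, adjusted p = 0.81, edgeR). Rhbg was called lower there (-1.33, 0.0114). That call was lost without P0 replicate 1, P0 replicate 2 or P56 replicate 2 (-1.57 to -1.08 over the samples left out). Their start-site peaks gave 18.2% ± 7.11 in IC and 15.6% in CNT for Rhcg (chr7:79617269-79617961) and 18.6% ± 8.44 in IC and 13.6% in CNT for Rhbg (chr3:88254374-88255085).

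Slc4a4, the sodium bicarbonate cotransporter, was the member of the proximal tubule. It was open in 89.1% ± 5.68 of PCT and 82.4% ± 6.71 of PST nuclei, followed by Stroma2 at 60.9%, and PCT led in 5 of 5 samples. It had a pair of start-site peaks with opposite leads. At the start of the gene (chr5:88886582-88888603, where 4 transcripts begin), PST gave 26.5% and 32.1% at P0 and 15.0%, 15.4% and 33.8% in the adult samples, and PCT 15.2% ± 3.68. At the internal start 141226 bp further on (chr5:89027650-89028438, where 3 transcripts begin), PCT gave 37.1% and 30.9% at P0 and 47.9%, 30.2% and 61.5% in the adult samples, and PST 24.4% ± 5.75. PST led at the gene start and PCT at the internal start in each of the 5 samples. PST nuclei were the deeper in each sample. Their median open peaks were 10199 and 8547.5 at P0 and 5398.5, 5956 and 12173 in the adult samples. Those of PCT were 7128 and 5420, and 5227, 4206 and 7466. The part of depth in the PST lead was not tested.

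**Figure D1:**
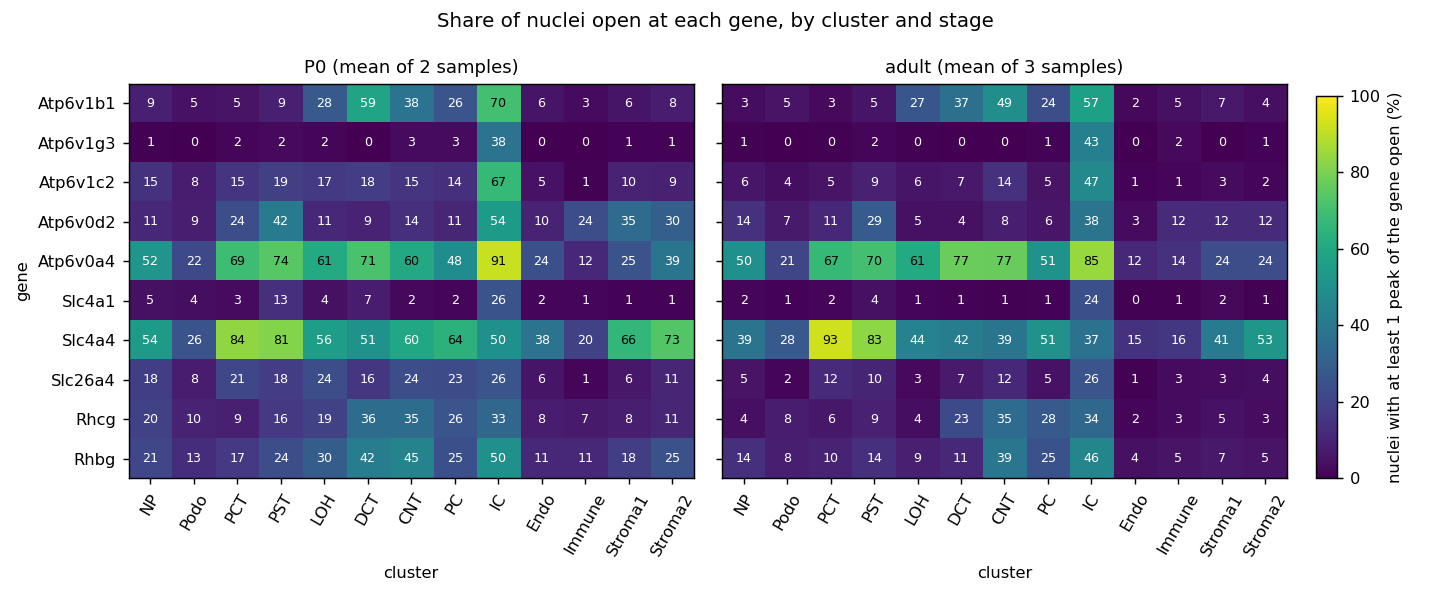
Share of nuclei (%) with at least 1 peak of each gene (vertical axis) open in each of the 13 clusters (horizontal axis), as the mean of 2 P0 samples (left) and 3 adult samples (right). IC is the brightest column for 8 of the 10 genes over the 5 samples, Rhcg is led by CNT (35.2%) and Slc4a4 by PCT (89.1%).

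**Figure D2:**
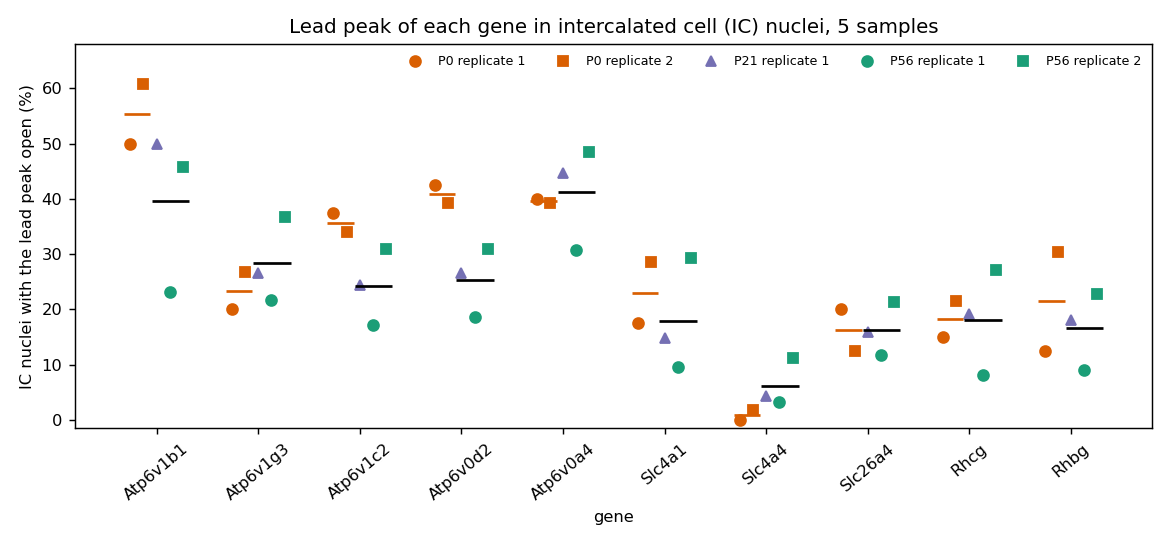
Share of IC nuclei (%) with the lead peak of each gene open, 1 point per sample, with the mean of the P0 samples as an orange line and that of the adult samples as a black line. The lead peak of Slc4a4 is its PCT peak and sits between 0 (of 40 nuclei) and 11.2% in IC, and P56 replicate 1, the shallowest sample, is the lowest adult sample at all 10 lead peaks.

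Averaged over the 5 samples, IC led at 8 of the 10 genes, and the count was also 8 with nuclei thinned to 1000 open peaks and with any 1 sample left out. IC was the most open cluster at 46 of the 178 peaks (25.8%) and at 8.26% of all peaks. PCT was the most open at 49 (27.5%, and 6.52% of all peaks), of which Slc4a4 held 33 at and beyond its internal start and 10 before it, and LOH at 0. The genes whose levels over the 65 sums of a sample and cluster were most like those of a member were taken as a description, since sums of 1 sample share its depth. For Atp6v1b1 these were Gm11695 (Pearson r = 0.889), 1700126H18Rik (0.878), Pla2g3 (0.877), Gm26764 (0.873) and Gm15984 (0.873). For Slc26a4 they were Dsc2 (0.705), Gm37571 (0.692), Src (0.684), Atp6v1c2 (0.679) and Nwd2 (0.679), with 1 other member among them. For Slc4a4 they were Gm26684 (0.853), Sult1b1 (0.848), Lpar3 (0.839), Mgat3 (0.824) and Vps13d (0.820), and none of the 15 shared a peak with its member.

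The change between P0 and adult was then tested in each cluster on open calls summed over the nuclei of a sample, 2 P0 against 3 adult samples, by edgeR's quasi-likelihood F-test with TMM normalisation and Benjamini-Hochberg adjustment over all genes or all peaks at 0.05. Fold changes are log2 of adult over P0 with the SE of the test. They are changes relative to all open calls of the cluster and not per nucleus, and levels are given as CPM, open calls scaled to a total of 1000000 per sum. An exact permutation test of 2 against 3 samples cannot go below p = 0.2, so none was used.

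In IC all 10 genes could be tested and 1 was called, Slc26a4, which was higher in adult. In the same test 0.998% of the 16626 genes were called, and 0.265% were called in this direction. Slc26a4 had 41.0 and 32.4 CPM at P0 and 69.4, 74.9 and 92.0 in the adult samples, and the groups did not overlap. Its log2 fold change was 1.12 ± 0.262 (adjusted p = 0.0435, edgeR). The shares of nuclei given above overlapped between the stages. Scaled by nuclei in place of open calls, the log2 fold change was 0.553 (adjusted p = 0.536). That scaling moved the median of all IC genes by -0.548 on the log2 scale and the share of higher genes among the IC calls from 26.5% of 166 to 0.512% of 782. The call was also lost without P0 replicate 1 (adjusted p = 0.303), P0 replicate 2 (0.475), P21 replicate 1 (0.0911) or P56 replicate 2 (0.108). It held without P56 replicate 1 (0.00215). It was further lost without the nuclei of shared barcodes (0.0529) and in windows around the start (0.334), and with nuclei thinned 0 of the 10 genes were called in IC, where Slc26a4 did not pass the filter on low counts.

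Atp6v1g3 was next among the 10 in IC, with 54.6 and 58.3 CPM at P0 and 115, 88.2 and 99.5 in the adult samples (log2 fold change 0.757 ± 0.218, adjusted p = 0.0853). These groups did not overlap either, but for 2 against 3 samples such a separation gives p = 0.2 at best in an exact permutation test. The other 8 had log2 fold changes from -0.263 in Atp6v1c2 to 0.552 in Slc4a1 and adjusted p-values of 0.257 or more. Of the 178 peaks, 21 could be tested in IC and 0 were called (lowest adjusted p = 0.327), beside 0.108% of the 14852 IC peaks tested by edgeR, all of them higher in adult. DESeq2 called 0 IC peaks, and 1570 IC peaks had an unadjusted p under 0.05 in edgeR.

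The markers of several cell types moved with stage in IC as well. The summed level of the 5 IC markers was 201 to 259 CPM at P0 and 342 to 371 in the adult samples, with 0 of the 5 called. The 3 LOH markers summed to 30.2 to 37.6 at P0 and 58.0 to 79.3 in the adult samples, with Umod called (log2 fold change 2.75, adjusted p = 0.0161), and the 5 PC markers to 101 to 113 and 116 to 155, with 0 of the 2 tested called. The PCT markers overlapped between the stages (19.4 to 41.0 and 39.9 to 105). Sums lower in every adult than in every P0 sample included those of the 3 markers each of Endo (114 to 116 and 61.5 to 97.9), Stroma (51.2 to 64.7 and 29.8 to 44.8) and NP (17.3 to 41.0 and 10.9 to 16.6), with 0 of the 3 that could be tested called, and the podocyte marker Podxl was not called either (-1.04, adjusted p = 0.137, edgeR). No IC, LOH, PC, PCT or Endo marker was at 0 in any IC sample. Their part in the Slc26a4 result was not tested.

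Slc26a4 fell in PC, LOH and NP. In PC it was open in 25.1% and 21.1% of nuclei at P0 and in 6.80%, 1.88% and 5.66% in the adult samples. The groups did not overlap, and the log2 fold change was -2.27 ± 0.276 (adjusted p = 5.21e-05, edgeR). In LOH the shares were 23.3% and 24.8% at P0 and 1.78%, 2.21% and 4.09% in the adult samples (-2.28 ± 0.223), and in NP 17.1% and 19.6% at P0 and 5.77%, 2.22% and 7.55% (-1.80 ± 0.412). These 3 falls held in every fit with 1 sample left out and when scaled by nuclei. With nuclei thinned, Slc26a4 could be tested in LOH (-2.23, adjusted p = 0.00039, edgeR) but not in PC or NP. The NP cluster did not keep its markers: the 3 NP markers summed to 133 CPM in both P0 samples and to 13 to 39.6 in the adult samples, and the 3 LOH markers in NP to 30.2 to 37.5 and 108 to 143. Their part in the NP results was not tested. A fall in Endo (-2.44, adjusted p = 0.00831) was lost without P0 replicate 1 or P0 replicate 2, with adjusted p-values of up to 0.116.

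The difference between IC and PC in this change was tested directly. It was 3.43 ± 0.335 on the log2 scale (adjusted p = 2.74e-07, edgeR), 1 of the 10 genes called beside 0.702% of 20803 genes. The highest adjusted p with 1 sample left out was 0.000208, and DESeq2, which called 1 gene of all those tested, gave 0.000829 for Slc26a4. With nuclei thinned to 1000 open peaks the difference was 4.35 (adjusted p = 0.157).

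Intercalated markers were lower in the adult samples in most clusters other than IC: the 5 summed lower in every adult than in every P0 sample in 10 of the 13 clusters, among them PCT (44.2 to 50.0 CPM at P0, 20.4 to 28.4 in adult), PST (47.2 to 52.3 and 15.0 to 25.1), CNT (80.6 to 107 and 36.2 to 49.0) and Podo (91.6 to 105 and 33.0 to 51.9), and higher in 1, IC. Slc26a4 was also below 0 in PCT (-0.587), PST (-0.479) and CNT (-0.612), without a call, and could not be tested in Podo. In PC 3 of the 5 could be tested and 2 fell, Kit (-2.10, adjusted p = 4.53e-05) and Insrr (-1.22, 0.0225), and the 5 summed to 82.1 to 94.1 CPM at P0 and 25.3 to 58.9 in the adult samples. In LOH 4 of 5 fell, Kit the most (-3.10), with sums of 87.6 to 91.9 and 21.9 to 26.9. In NP 2 of the 2 tested fell, with sums of 93.0 to 99.7 at P0 and 25.9 to 60.9 in the adult samples, where Foxi1 was at 0 in all 3. In single samples Hmx2 and Aqp6 were at 0 in NP, Hmx2 and Foxi1 in LOH and Aqp6 in PC. Kit, Insrr and Aqp6 also passed the test of the difference between IC and PC (2.42, 1.71 and 3.41). Their part in the Slc26a4 result was not tested.

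Within the gene the fall in PC was largest at the intron 13 peak shown above (chr12:31533866-31535068), which was open in 9.39% and 7.71% of PC nuclei at P0 and in 0, 0.376% and 0.472% in the adult samples (log2 fold change -4.01 ± 0.676). The 0 was in 103 P21 nuclei, which allows a share of up to 2.91%. Without P0 replicate 1 its adjusted p was 0.109. Without a filter on low counts 0 of 278469 PC peaks were called by edgeR, so that every PC peak call given here and below is lost. The same peak fell in CNT (-1.72) and PCT (-1.62), calls also lost without P0 replicate 1 (0.293 and 0.111), and that in CNT without P0 replicate 2. The start-site peak of Slc26a4 in PC fell by 1.20 on the log2 scale, from 11.9% and 8.00% to 4.85%, 1.13% and 4.72%, a call that held in only 1 of the 5 fits with a sample left out, the one without P21 replicate 1 (adjusted p of up to 0.547 in the others).

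Over the 13 clusters, 93 tests of a gene in a cluster could be made and 33 were called, 15 higher and 18 lower in adult, beside 11.1% and 14.2% of the 251964 tests of any gene. All 15 rises were relative to the open calls of the cluster: scaled by nuclei, which moved the median of all genes by -0.182 in Podo to -1.35 in Endo on the log2 scale, 34 were called, 0 higher and 34 lower. The share of all genes called ran from 0% in Immune through 5.55% in DCT, 10.8% in Podo, 12.9% in PST, 25% in CNT, 25.3% in Endo, 28.4% in PCT, 29.7% in PC, 30.5% in Stroma1, 37.4% in Stroma2 and 39.4% in NP to 52.1% in LOH. Against these, the members called were 0 of 3 in Immune, 1 of 5 in DCT, 1 of 5 in Podo, 1 of 9 in PST, 2 of 8 in CNT, 1 of 8 in Endo, 4 of 10 in PCT, 5 of 8 in PC, 2 of 4 in Stroma1, 4 of 8 in Stroma2, 4 of 6 in NP and 7 of 9 in LOH. A call held in every fit with 1 sample left out in 14 of the 33. Leaving out P0 replicate 1 removed 19 calls, leaving out P0 replicate 2 removed 17, and 12 were lost without at least 1 of the adult samples.

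**Figure D3:**
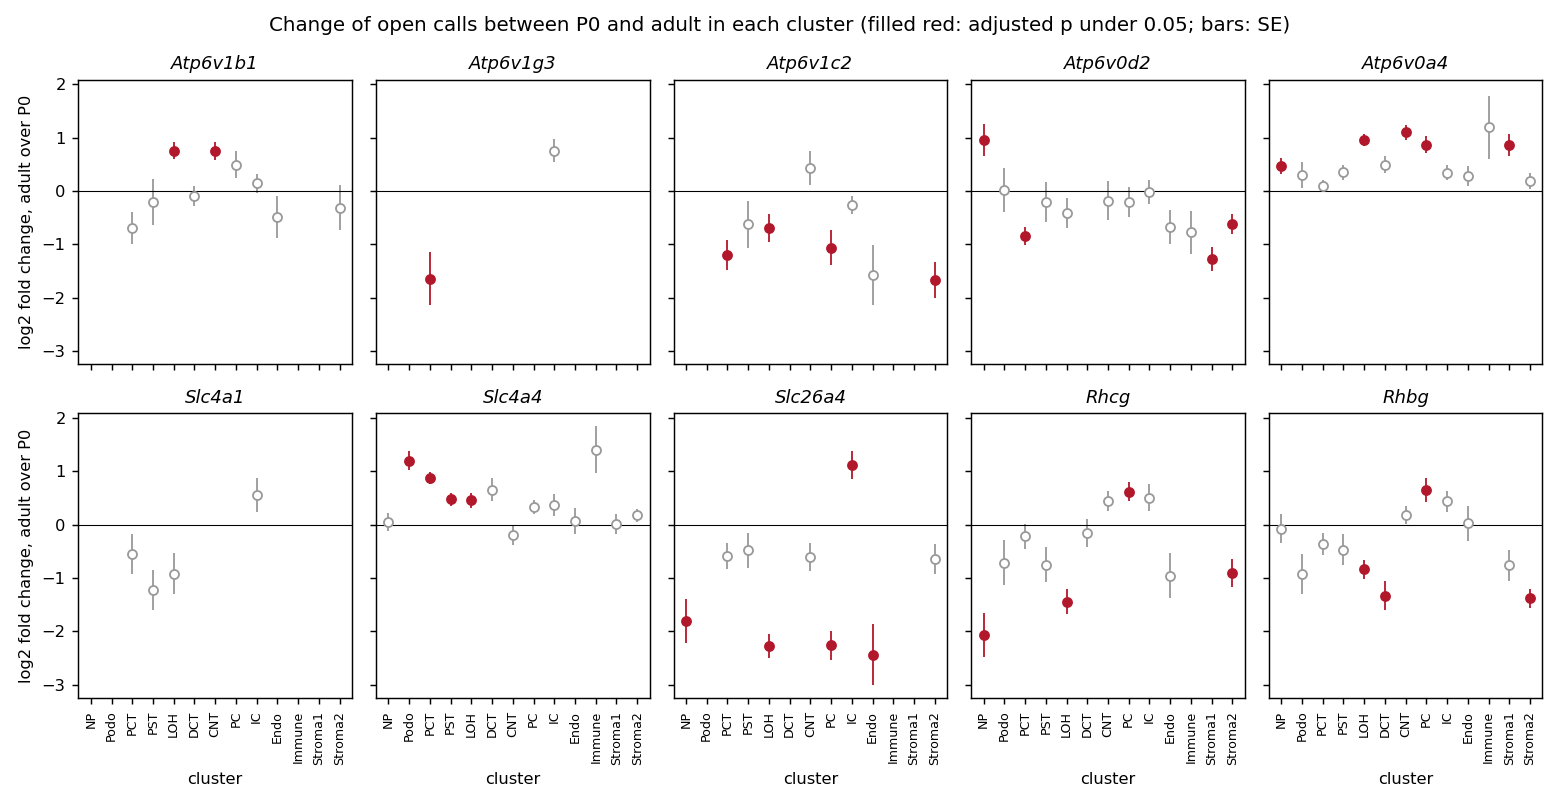
log2 fold change of open calls (adult over P0, relative to all open calls of the cluster) of each gene in the clusters where it could be tested, with SE bars and calls at an adjusted p under 0.05 in red. Slc26a4 lies at 1.12 in IC and at -2.27 in PC, and Atp6v0a4 is above 0 in all 13 clusters, though scaled by nuclei it is below 0 in 6 of them, with the lowest value (-1.05) in Endo.

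Of the pump subunits, Atp6v0a4 rose in CNT, from 56.3% and 64.4% of nuclei at P0 to 77.1%, 62.9% and 90.6% in the adult samples (log2 fold change 1.1 ± 0.147), with the P56 replicate 1 share inside the P0 range. It also rose in PC (0.871 ± 0.155) and LOH (0.955 ± 0.119), and Atp6v1b1 rose in LOH (0.756 ± 0.159), but scaled by nuclei both LOH changes turned below 0, to -0.011 for Atp6v0a4 and -0.215 for Atp6v1b1. In CNT and PC the nuclei-scaled changes of Atp6v0a4 were 0.553 and 0.401 and were not called. Markers of DCT, the second cluster at Atp6v0a4, moved with the rises in CNT and LOH: the 3 summed to 107 to 108 CPM in CNT at P0 and 396 to 567 in the adult samples, and to 120 and 196 to 261 in LOH. Slc12a3, the salt transporter of DCT, was called higher in both (2.67 in CNT, 2.10 in LOH), Trpm6 was called higher in CNT (1.55), and Trpm6 and Pvalb were called lower in LOH (-0.744 and -1.80). The 4 CNT markers in CNT summed to 265 to 282 at P0 and 791 to 1156 in the adult samples, and the 3 LOH markers in LOH to 116 to 143 and 490 to 562. In PC the DCT markers overlapped between the stages (84.4 to 93.3 at P0 and 86.3 to 121 in the adult samples) with 0 of the 2 tested called, while the 5 PC markers summed to 120 to 133 at P0 and 263 to 356 in the adult samples, all 5 called higher. The part of these markers in the rises was not tested. Atp6v0d2, scaled either way, fell in Stroma1, from 33.8% and 35.9% to 12.2%, 7.48% and 15.8% of nuclei (-1.28 ± 0.221). The 3 stromal markers, whose highest level was in Stroma2, fell in Stroma1 too. They summed there to 246 to 255 CPM at P0 and 119 to 175 in the adult samples, all 3 called lower. The markers of DCT (52.2 to 60.1 and 124 to 173), Endo (96.5 to 97.2 and 126 to 205) and PCT (29.0 to 33.2 and 47.1 to 156) were higher. The part of all these markers in the fall of Atp6v0d2 in Stroma1 was not tested. Atp6v1c2 was called lower in 4 of 8 clusters and higher in 0: LOH (-0.688), PC (-1.06), PCT (-1.21) and Stroma2 (-1.67), all 4 also when scaled by nuclei, and all 4 lost without P0 replicate 1 (adjusted p of up to 0.308). Atp6v1g3 fell in PCT (-1.64), a call that held only without P56 replicate 1. Atp6v0d2 was called in opposite directions in other clusters, lower in PCT (-0.843) and Stroma2 (-0.626) and higher in NP (0.956), and these 3 calls were lost without P0 replicate 1 or P0 replicate 2 (up to 0.184).

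In CNT an Atp6v0a4 peak was seen in the adult samples alone. The DCT peak in intron 16 was open in 0 of the 135 and 0 of the 101 CNT nuclei of the P0 samples, which allows shares of up to 2.22% and 2.97%, and in 14.5%, 6.12% and 24.4% of those of the adult samples. Against a floor of 3 open calls over the P0 group it was at least 17.6-fold higher in adult. The call held in every fit with 1 sample left out. With 0 open calls at P0, though, the peak passed the filter on low counts through the adult samples alone. Its calls therefore add nothing to the counts of nuclei. The DCT markers of adult CNT given above moved with this peak, and their part in it was not tested. The peak over the annotated start also rose in CNT (1.25 ± 0.250) and PC (1.23 ± 0.239), the latter call being lost without P0 replicate 1 (adjusted p = 0.0657, edgeR), and neither was called when scaled by nuclei (0.95 and 0.75).

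The ammonia channels were called lower in 3 clusters each, of 11 tested for Rhcg and 12 for Rhbg. Rhcg was open in 16.5% and 21.9% of LOH nuclei at P0 and in 3.05%, 2.59% and 5.75% in the adult samples (-1.45 ± 0.235), and in NP, where the markers moved as given above, it fell by 2.07 on the log2 scale. Rhbg fell in LOH (-0.841 ± 0.173) and in Stroma2, from 23.0% and 26.3% to 4.85%, 4.67% and 6.69% of nuclei (-1.38 ± 0.181). The intercalated markers summed lower in adult LOH and Stroma2, as given above. The 4 CNT markers summed lower in adult Stroma2 (239 to 245 CPM at P0, 124.5 to 148 in adult) and higher in adult LOH (130 to 139 and 145 to 179). The part of these markers in the falls of Rhcg and Rhbg was not tested. In PC both were called higher in adult, Rhcg with 0.618 and Rhbg with 0.642, but both calls were lost without P0 replicate 1, P0 replicate 2 or P56 replicate 2, with adjusted p-values of up to 0.252 and 0.316. The Rhcg start-site peak in PC was open in 5.33% and 8.57% of nuclei at P0 and in 6.80%, 9.02% and 22.2% in the adult samples (1.43 ± 0.320), a call lost without P0 replicate 1 (adjusted p = 0.119, edgeR) and when scaled by nuclei (0.182).

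Slc4a4 rose in PCT, from 83.7% and 83.3% of nuclei at P0 to 91.7%, 89.8% and 96.8% in the adult samples, or from 444 and 427 to 790, 663 and 717 CPM. Neither measure overlapped between the stages, and the log2 fold change was 0.869 ± 0.112 (adjusted p = 0.00082, edgeR). Scaled by nuclei it was 0.562 (0.394). The 3 PCT markers rose in PCT as well, summing to 284 to 286 CPM at P0 and 438 to 568 in the adult samples, with all 3 called higher. Their part in the Slc4a4 rise was not tested. Slc4a4 was higher in Podo too relative to open calls, from 82.2 and 70.3 to 197, 135 and 210 CPM (1.20 ± 0.177), but the shares of nuclei overlapped, with 25.1% and 26.2% at P0 and 36.2%, 19.8% and 28.2% in the adult samples, and scaled by nuclei it was not called (adjusted p = 0.272). The PCT markers in Podo moved the same way, summing to 25.1 to 41.9 CPM at P0 and 75.8 to 114 in the adult samples, with Slc34a1 called higher (1.43), and their part was not tested. Calls in PST (0.476) and LOH (0.454) were lost without P0 replicate 1 or P0 replicate 2, with adjusted p-values of up to 0.227 and 0.18, the LOH call also without P21 replicate 1, and scaled by nuclei the LOH value was -0.504. In the direct test of the difference between PCT and PST in this change, 0 of 10 genes were called (lowest adjusted p = 0.21) beside 3.39% of 25697 genes, with 3896 genes at an unadjusted p under 0.05.

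The rise in PCT was not even along the gene. Split at the internal start, a division chosen after the values were seen, 31 of the 60 peaks tested at and beyond it rose and 0 fell, with a median log2 fold change of 1.30. Before it 7 of 22 rose and 2 fell, with a median of 0.301. The 31 include a peak 264596 bp from the gene start, open in 0 of the 547 and 0 of the 557 PCT nuclei of the P0 samples. That peak passed the filter on low counts through the adult samples alone, so its call adds nothing to the counts of nuclei. It is also counted among all PCT rises below. Fewer peaks were called at and beyond the internal start with 1 P0 sample left out, 6 rising without P0 replicate 1 and 8 without P0 replicate 2, and 14 when scaled by nuclei, with 0 falling and medians of 1.56, 1.19 and 0.913. Before it the counts in these fits were 2, 4 and 1 rising and 1, 1 and 4 falling, with medians of 0.449, 0.41 and -0.0713. The gap between the stretches was narrower without P21 replicate 1, P56 replicate 1 or P56 replicate 2, where the medians before the internal start were 0.62, 0.759 and 0.68 and those beyond it 1.08, 1.25 and 1.15, and with nuclei thinned they were 0.63 and 0.785. Over all 127 PCT peaks tested in the 10 genes 41 rose and 11 fell, and of all 115761 PCT peaks 16.3% rose and 17.6% fell (33.9% called). The peaks that fell lay 4354 bp and 31967 bp from the gene start, the first going from 6.22% and 5.03% of nuclei to 0.258%, 0.244% and 0.392% (-3.81 ± 0.401). That call held in each fit with 1 sample left out, and the other peak passed the filter in none of them.

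**Figure D4:**
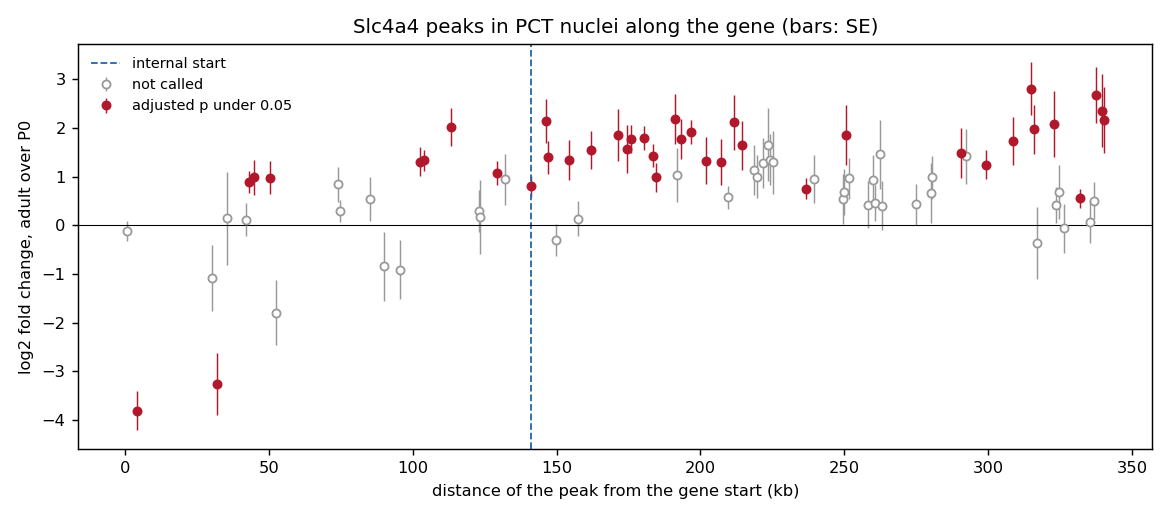
log2 fold change (adult over P0, SE bars) of each Slc4a4 peak tested in PCT against its distance from the gene start in kb, with calls in red and the internal start as a dashed line. A further peak with 0 open P0 nuclei, which passed the filter through the adult samples alone, is not drawn but is counted among the 60 and the 31. At and beyond the dashed line 31 peaks of 60 rose and 0 fell, and the called falls are at -3.81 and -3.27 near the gene start.

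The start-site peaks of Slc4a4 changed in opposite directions in PC. The peak at the gene start was open in 21.8% and 20.3% of PC nuclei at P0 and in 1.94%, 6.77% and 8.96% in the adult samples (-1.16 ± 0.301), and the peak at the internal start in 1.78% and 2.00% at P0 and in 9.71%, 0.376% and 9.43% (1.96 ± 0.613). P56 replicate 1 lay below both P0 samples at the internal start. Both calls were lost without P0 replicate 1, and that of the internal start also without P0 replicate 2. The peak at the internal start could be tested in only 3 of the 5 fits with a sample left out, and its call held in 1 of them. Proximal markers were also higher in adult PC, where the 3 PCT markers summed to 25 to 28.5 CPM at P0 and 30.3 to 107 in the adult samples, none of them at 0, and Slc34a1 and Slc5a12 were called higher. Their part was not tested. In PC 16 of 30 peaks of the 10 genes were called beside 29.4% of all PC peaks, in CNT 9 of 25 beside 22.6%, and in PST 2 of 27 beside 16%. The 9 in CNT include the intron 16 peak of Atp6v0a4, which passed the filter through the adult samples alone.

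The rest of the pathway was looked up in lists of other pump subunits, other acid-base transporters, carbonic anhydrases and regulators. Of 20 other subunit genes 18 could be tested in IC and 0 were called, and 19 could be tested in PC, where 8 rose (12.4% of all PC genes) and 0 fell, with a median log2 fold change of 0.396 beside 0.0045 over all genes. The PC markers in PC rose as given above, and the 3 LOH markers there summed to 21.4 to 30.6 CPM at P0 and 52.5 to 65.4 in the adult samples, with Slc12a1 and Umod called higher (0.872 and 2.22). Their part in the rise of the list was not tested. The largest of these were Atp6v0d1 (0.911), Atp6v0e (0.816) and Atp6v1f (0.792), and scaling by nuclei, which moved the median of all PC genes by -0.475, left 0 of the 19 called and a list median of -0.0247. Without P0 replicate 1, P0 replicate 2 or P56 replicate 2 the rises were 2, 3 and 4, and without P56 replicate 1 they were 12. The difference between IC and PC was called for 0 of 19. Of 25 other acid-base transport genes 22 were tested in IC, 0 called, and 24 in PC, with 4 higher, among them the potassium channel gene Kcnj16 (1.02), and 2 lower. Kcnj16 also passed the test of the difference between IC and PC (-1.20, adjusted p = 0.0365), as did Car15 (-2.06, 0.0125). Of 16 carbonic anhydrases, the enzymes that turn carbon dioxide and water into bicarbonate and protons, 4 of 15 tested rose and 4 fell in PC, from 2.33 in Car15 to -1.69 in Car3, with 0 of 8 called in IC. Of 15 regulators of intercalated and principal cells 0 of 14 were called in IC, and 4 rose and 1 fell of 13 in PC, where Tfcp2l1 rose by 0.716. Beside these counts for the lists, 0.998% of all genes tested were called in IC and 29.7% in PC, in either direction. Scaled by nuclei, 0 of the other transport genes and 0 of the regulators were called in PC, and 1 carbonic anhydrase rose and 4 fell. Without P0 replicate 1 or P0 replicate 2, 1 transport gene rose and 0 fell, 0 regulators were called, and 2 or 1 carbonic anhydrases rose and 1 fell. The genes of these lists named for PC were picked after their values were seen.

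Slc4a1 and Slc26a4 mark different intercalated cells, and their overlap in single nuclei was counted. Of the 144 IC nuclei with Slc4a1 open, 23 also had Slc26a4 open (16.0%), while 29.7% of the 455 nuclei with Slc4a1 closed had it open. At P0 the shares were 28.6% and 26.3% where Slc4a1 was open and 27.3% and 24.3% where it was closed. In the adult samples they were 0 of 23 nuclei (which allows up to 13%), 13.8% and 18.2% where it was open and 32.4%, 24.0% and 39.3% where it was closed. All 3 adult samples had the lower share where Slc4a1 was open and neither P0 sample did, but the P0 shares rest on 7 and 19 nuclei.

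Of the 45 pairs among the 10 genes this pair had the lowest ratio of these shares, whichever gene was taken as given (0.538 given Slc4a1 and 0.531 given Slc26a4). Over the 90 ratios of both orders the median was 1.34 and the highest 3.42, and 6 were below 1. The place of the pair was not kept at equal depth. Thinned to 1000 open peaks, its ratios were 0.451 and 0.446, 2 other pairs were lower and 42 of the 90 ratios were below 1, with 1 of 30 nuclei with Slc4a1 open having Slc26a4 open (3.33%), against 7.39% of those with it closed.

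Adult IC nuclei were then set apart by the pair, a grouping made after these values were seen and described without a test: 102 nuclei with only Slc4a1 open, 117 with only Slc26a4, 16 with both and 268 with neither. Their median numbers of open peaks were 5396, 4996, 6677 and 3515, so the first 2 groups were close in depth. Dmrt2, a regulator of type A cells, was open in 41.1% ± 12.1 of the Slc4a1 nuclei and 5.80% ± 6.64 of the Slc26a4 nuclei (mean ± SD of 3 adult samples), and Aqp6, a channel of type A cells, in 33% and 2.87%. Kit was open in 52.3% and 26.5%. Hmx2 went the other way, with 5.25% ± 1.87 and 47.2% ± 1.15, and Insrr, an alkali sensor of type B cells, with 41.9% and 67.1%. The gap had the same sign in each of the 3 adult samples for all 5. Peaks shared with another gene cannot be told apart here either: both Dmrt2 peaks lay also in 2610016A17Rik, all 4 of Hmx2 in Fgfr2, and those of Insrr were shared too, while those of Kit and Aqp6 were not shared. Not every gene followed the type it is known for: Slc4a8, a sodium-driven bicarbonate exchanger of type B cells, was open in 45.0% ± 9.87 of the Slc4a1 nuclei and 22.1% ± 7.83 of the Slc26a4 nuclei, higher in the former in all 3 samples, and the reverse at P0 (34.3% and 55.6%). These genes were picked after their values were seen. Of the 14 regulators open in at least 20% of either group, 3 were higher in the Slc4a1 and 3 in the Slc26a4 nuclei of all 3 samples. Of 18 other acid-base transport genes 7 were higher in the Slc4a1 and only Slc9a8 in the Slc26a4 nuclei. Of the 11599 genes that open the shares were 15.1% and 12.6%.

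At P0, with 19 and 18 nuclei, Hmx2 stood at 13.6% of the Slc4a1 nuclei and 44.4% of the Slc26a4 nuclei, and Insrr at 45.0% and 72.2%. Aqp6 was level at 17.1% and 16.7%, Dmrt2 was at 35% and 27.8%, and Kit went in opposite directions, with 40% of the Slc4a1 and 33.3% of the Slc26a4 nuclei in P0 replicate 1 and 42.9% and 66.7% in P0 replicate 2. Foxi1, needed by both types, was open in 28.4% and 29.1% of the adult nuclei, and Slc4a9, a basolateral transporter of type B cells, in 75.3% and 77.0%.

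Of the 8 other members, 4 had the same direction in all 3 adult samples. Of the 11599 genes that open, 15.1% were higher in the Slc4a1 and 12.6% in the Slc26a4 nuclei of all 3. Atp6v0a4 was open in 93.3% and 91.4% of the adult Slc4a1 and Slc26a4 nuclei and Atp6v1b1 in 68.7% and 64.9%, Atp6v0d2 in 43.5% and 55% and Slc4a4 in 40.1% and 45.7%, without the same direction in each sample. Atp6v1c2 was higher in the Slc26a4 nuclei of all 3 samples (42.9% and 62.1%), as were Atp6v1g3 (43.5% and 52.0%) and Rhcg (34.8% and 43.3%). Rhbg was higher in the Slc4a1 nuclei (63.3% and 36.9%), in peaks that it shares with Gm38392. The gaps in P56 replicate 1 were small for Atp6v1g3 (32% and 34.8%) and Rhcg (16% and 17.4%). At P0 the means of Atp6v1c2 (89.3% and 83.3%), Atp6v1g3 (61.4% and 44.4%) and Rhcg (61.4% and 27.8%) went the other way. Rhbg kept its direction at P0 (72.1% and 38.9%). Of 11597 genes open in at least 20% of either group, 0.259% were at least 25 percentage points higher in the Slc4a1 nuclei in the mean and higher in each of the 3 samples, and 0.129% in the Slc26a4 nuclei. By the size of the gap, Adgrf5 (55.5% and 17.9%) and Tgif1 (57.4% and 20.6%) led the first set, and Ank (27.6% and 69.9%) and Galnt7 (26.3% and 68.5%) the second.

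**Figure D5:**
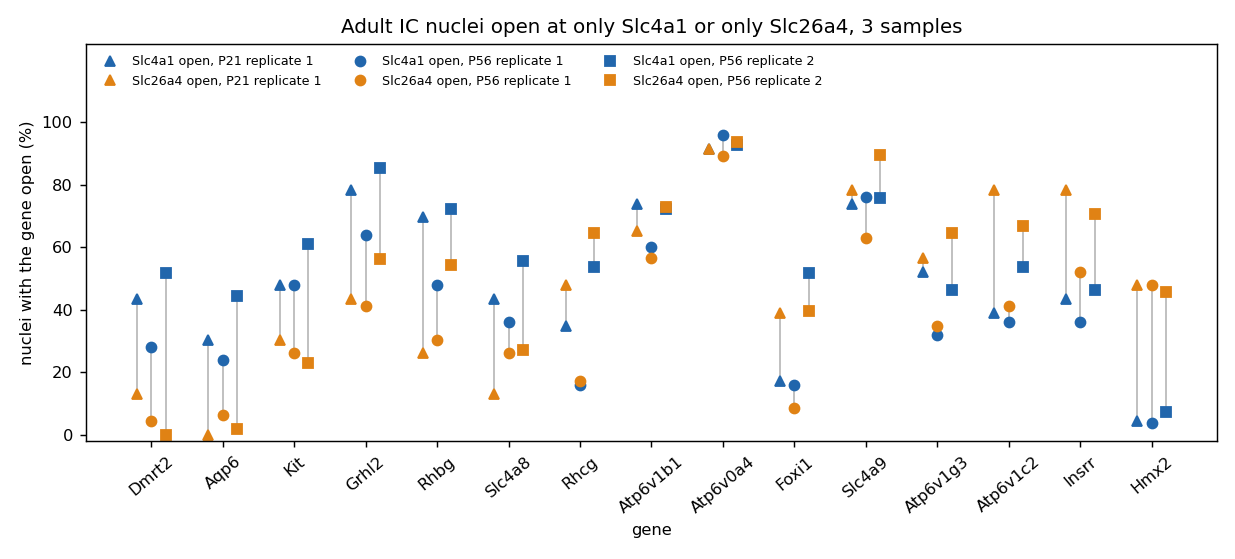
Share of adult IC nuclei (%) with a gene (horizontal axis) open, among nuclei with only Slc4a1 open (blue) or only Slc26a4 open (orange), 1 pair of points per adult sample joined by a grey line. Dmrt2 (41.1% and 5.80% on average) and Hmx2 (5.25% and 47.2%) lie at opposite ends, and Atp6v0a4 is near 90% in both.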

How the data were processed

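Per the labels and methods, the authors aligned the reads to mm10 with Cell Ranger ATAC 1.1.0, called peaks with MACS2 on the pooled nuclei of a cell type, merged them, and deposited a binarized nucleus-by-peak matrix. The deposited values are counts of 0 or 1 per nucleus and peak, not scaled for depth (16980853 to 43794155 open calls per sample), so intervals and floors cover counting error only. The deposited peak list gives positions in bp, read here in place of a score, and the metadata gives the sample and cluster of each nucleus (664 nuclei outside the 13 clusters were not used).

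Open calls were summed per sample and cluster (at least 20 nuclei) over the peaks of a gene in GENCODE M21, body plus 2 kb upstream, and tested in R 4.3.3 with edgeR 4.0.16 (filterByExpr, minimum count 10, minimum total 15). DESeq2 1.42.0 was an alternative, and likewise size factors, no filter, scaling by nuclei, thinning, windows around the start (2 kb before to 0.5 kb after), a replicate block and leaving out samples. Other steps used Python 3.11.15 with pandas 2.3.3 and scipy 1.17.1. The edgeR step was tested on simulated IC sums with known changes. It recovered 36% of 2-fold and 87% of 4-fold changes of genes, and 19% and 79% of those of peaks. A 2-fold change in IC could therefore go uncalled. The genes and lists were chosen with earlier results of these data known. Named are the 10 genes, the start-site and lead peak of each, other list genes called in IC, and the 5 genes most like Atp6v1b1, Slc26a4 and Slc4a4 by Pearson's r of log2 CPM (deposited counts scaled to 1000000); the other peaks and genes named were picked after their values were seen. Doublets were not searched for. Bulk ATAC-seq and single cell RNA-seq were not used here.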

Additional observations from a re-analysis of the deposited data

Results flagged for a closer look

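The change of Slc26a4 between P0 and adult differed between IC and PC in the direct test of the difference, by 3.43 on the log2 scale (SE 0.335, adjusted p = 2.74e-07, edgeR). In IC the log2 fold change was 1.12, a call that was lost when scaled by nuclei, without the nuclei of shared barcodes, in windows around the start, or without P0 replicate 1, P0 replicate 2, P21 replicate 1 or P56 replicate 2 (adjusted p up to 0.536), and in PC it was -2.27, a call that held in each of these. With nuclei thinned to 1000 open peaks Slc26a4 could be tested in neither cluster alone, and the difference was not called (4.35, adjusted p = 0.157). Its level in IC rose relative to all open calls in each of the 3 adult samples above both P0 samples, and in PC it lay in each adult sample below both. The summed level of the 5 intercalated markers moved in the same directions in both clusters, and their part in the difference was not tested.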

How the results depend on the processing

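Of 662 recomputed single values of genes and peaks, 486 kept their direction and their side of the threshold, 156 kept the direction but lost the call, 4 gained one and 16 turned, and the cause was not tested unless named. The calls among the 10 genes in IC, 1 as reported, were 0 with DESeq2 (which gave no adjusted p for 4 of the 10, Slc26a4 among them), scaled by nuclei, thinned, in start-site windows and without shared barcodes, 2 without a filter, and 0 to 4 with 1 sample left out. Over the 13 clusters the 33 calls became 8 when thinned, 21 in start-site windows and 14 to 48 with 1 sample left out. The 79 peak calls in PC, CNT, PCT and PST became 49 with DESeq2, 45 scaled by nuclei, 7 when thinned and 21 to 79 with 1 sample left out. Without a filter they were 89, of which 0 were in PC (16 as reported), 8 in CNT, 67 in PCT and 14 in PST. Among the 79 are the CNT peak of Atp6v0a4 and the PCT peak of Slc4a4 that had 0 open P0 nuclei. The difference between IC and PC went from 1 call to 0 when thinned, and the share of nuclei with Slc26a4 open beside Slc4a1 from 16.0% to 3.33%. Leaving out a P0 sample leaves 1, which is then assumed to vary like the other samples. Thinning leaves fewer features to test, 2968 genes in IC.

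Over all IC genes, 166 were called as reported, 21 by DESeq2, 782 scaled by nuclei, 688 without a filter, 0 when thinned, 1 in start-site windows, 2 without P0 replicate 1, 2 without P0 replicate 2, 31 without P21 replicate 1, 1631 without P56 replicate 1 and 84 without P56 replicate 2. Over all IC peaks the 16 calls became 0 with DESeq2, 166 by nuclei, 201 without a filter, 0 when thinned and 0 to 462 with 1 sample left out, with 0 among the 10 genes in each.

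The recomputed values covered, outside IC, only those that were called. Among them, those that turned when scaled by nuclei were in IC Atp6v1b1 (-0.38), Atp6v0a4 (-0.194), Slc4a4 (-0.112), Rhcg (-0.029) and Rhbg (-0.06), and in LOH Atp6v1b1 (-0.215), Atp6v0a4 (-0.011) and Slc4a4 (-0.504). Values without a call turned in other clusters too, such as Atp6v1b1 (0.497 to -0.0879) and Slc4a4 (0.335 to -0.117) in PC. Slc4a4 in LOH was -0.224 in start-site windows, and Atp6v1c2 in IC 0.248 when thinned. Atp6v0d2 in IC, near 0 as reported, was 0.019 with DESeq2, 0.088 without a filter, 0.667 thinned, 0.014 without shared barcodes, 0.15 without P0 replicate 2 and 0.208 without P56 replicate 2 (-0.214 to 0.208 over the samples left out).

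The replicate numbers are shared between P0 and P56, but deviations from the group means of same-numbered samples correlated at only 0.0588 over 16626 IC genes. With 2 samples per group the deviations mirror each other, so both pairs must give the same value. On this value the numbers were not taken to pair the samples. With the replicate block the calls were 1 in IC, 32 over the 13 clusters, 74 for peaks and 0 for IC peaks, and over all genes and peaks in IC 322 and 87.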
